A study of Mus musculus with 3 samples.

Results

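The locus described here is a window of 1 Mb on mouse chromosome 7, positions 117000001 to 118000000 of genome build mm9, that holds the genes Swap70, Adm and Ampd3. Its members are the peaks of an HA-NUR77 ChIP-seq experiment whose centre lies in the window, and the regions in which peaks of at least 2 of 3 replicates overlap. The window was chosen by its number of such regions, so the counts in it are a description and carry no test. For replicate 1 it holds 16 of 6777 peaks, for replicate 2 61 of 37307, and for replicate 3 23 of 8862. Of the 9800 regions of the series, 26 lie in it. ChIP-seq sequences the DNA that is precipitated together with a protein, and a peak is a stretch in which a peak caller finds more of this DNA than it expects.

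There is 1 group of 3 replicates. All are RAW264.7 cells, an established mouse macrophage line, with the construct pINDUCER20b-HA-NUR77, which makes NUR77 with an HA tag when doxycycline (Dox) is given. All received 1 µg/mL Dox for 18 hours, and the precipitation used an antibody against the HA tag, so the peaks are those of an induced, tagged protein in 1 stable line and not of the cells' own NUR77. Cells without Dox, without the construct or with a control antibody were not analysed here, so no value below is set against a background. Each replicate had dishes of its own, per the labels, which say nothing of separate days. Expression was not measured in this series, so neither the macrophage identity nor the activity of the 3 genes could be checked.

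NUR77, made from the gene Nr4a1, is an orphan nuclear receptor whose production rises quickly in macrophages that meet inflammatory stimuli. It binds DNA as a single molecule at the element called NBRE, and in pairs at other arrangements of the same half-site. Swap70 makes a signalling protein that binds phosphoinositides and Rac and acts on the actin cytoskeleton of blood cells. Adm makes adrenomedullin, a secreted peptide that widens blood vessels and is produced by macrophages and in low oxygen. Ampd3 makes an AMP deaminase, an enzyme that turns AMP into IMP and so links the cell's energy state to its purine pool. In the RefSeq gene table of build GRCm38 the protein-coding genes run in the order Zfp143, Wee1, Swap70, Sbf2, Adm, Ampd3, Rnf141 and Lyve1. Sbf2 thus lies between Swap70 and Adm, and Adm and Ampd3 are neighbours. Gene positions in mm9 were not used here, so a peak is given by its position and not by a gene.

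The sequences before the gene starts were searched for the NUR77 element and for other motifs, and are shown because the window is named for these genes. RefSeq promoters (GRCm38.p6, plus strand) were found for all 3 genes, with 1 start for Swap70, 1 for Adm and 3 for Ampd3, and the 250 bases before each start were searched on both strands. The motifs were NBRE (AAAGGTCA), its half-site (AGGTCA, which is also the end of NBRE) and the AP-1 site (TGANTCA). Also searched were GAGGAA, called the ETS core here, and ACGTG, called the hypoxia response core here. Both names stand only for these exact letters, and the shorter GGAA was not searched. One promoter of each gene is printed, for Ampd3 the second of its starts, with matches in capitals. They lie at chr7:110221453-110221702 for Swap70, chr7:110627407-110627656 for Adm and chr7:110772354-110772603 for Ampd3, in GRCm38 and not in the build of the peaks.
Swap70: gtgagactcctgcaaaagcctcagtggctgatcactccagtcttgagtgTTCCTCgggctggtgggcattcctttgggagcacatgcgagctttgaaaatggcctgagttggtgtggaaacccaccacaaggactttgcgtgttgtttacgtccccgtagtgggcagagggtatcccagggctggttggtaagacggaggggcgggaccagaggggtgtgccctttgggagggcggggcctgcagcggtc
Adm: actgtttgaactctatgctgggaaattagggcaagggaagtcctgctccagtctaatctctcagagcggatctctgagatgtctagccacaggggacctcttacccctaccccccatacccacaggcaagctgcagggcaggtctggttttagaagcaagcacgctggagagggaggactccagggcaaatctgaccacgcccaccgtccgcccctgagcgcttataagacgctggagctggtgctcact
Ampd3: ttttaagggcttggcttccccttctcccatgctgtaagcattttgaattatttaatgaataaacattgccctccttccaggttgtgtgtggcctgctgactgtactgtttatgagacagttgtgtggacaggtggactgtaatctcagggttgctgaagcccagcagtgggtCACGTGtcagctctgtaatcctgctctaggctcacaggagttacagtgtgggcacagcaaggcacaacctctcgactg

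Neither NBRE nor its half-site occurred in any of the 5 promoters. Over all 32851 promoters of the table, the 250 bases held NBRE in 1.34% and the half-site in 14.0%. The capitals in Swap70 are an ETS core on the minus strand, 201 bases before the start, and 23.3% of all promoters hold this core. The capitals in Ampd3 are CACGTG, in which the hypoxia response core reads on both strands, 77 and 78 bases before the start. These overlapping matches are a single site, and its letters alone name no factor. This core is found in 16.6% of all promoters. The third start of Ampd3 had GAGGAA at 2 places, and its first start and the promoter of Adm held none of the 5 motifs. That does not mean that they lack the shorter GGAA, which the printed promoter of Adm holds. The AP-1 site, held by 6.75% of all promoters, was in none of the 5. A match is a description of letters, and the place of the peaks relative to these starts was not determined.

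The window was dense in each of the 3 lists. With the genome tiled in windows of 1 Mb, its 26 regions compared with a median of 4 over the 1748 windows that held any region, and 5 windows held more. On chromosome 7 it held the most, with 23 in the next window and a median of 4 over 94 windows. Its 16 replicate 1 peaks were exceeded in 17 windows, its 61 replicate 2 peaks in 6 and its 23 replicate 3 peaks in 8. A window with any peak held a median of 3, 15 and 4 peaks in the 3 lists. Per replicate the window had 33.3 ± 24.2 peaks (SD, n = 3), and the lists differ in length in the same order. The excess of replicate 2 was smaller here than over the whole lists, 3.81 against 5.50 times the count of replicate 1 and 2.65 against 4.21 times that of replicate 3. With the 6777 best-scored peaks of each list replicate 2 had the fewest, with 10 peaks in the window against 16 of replicate 1 and 18 of replicate 3. The window was chosen by regions of at least 2 replicates, to which peaks of 1 list alone do not count. The effect of that choice on these ratios was not tested.

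**Figure D1:**
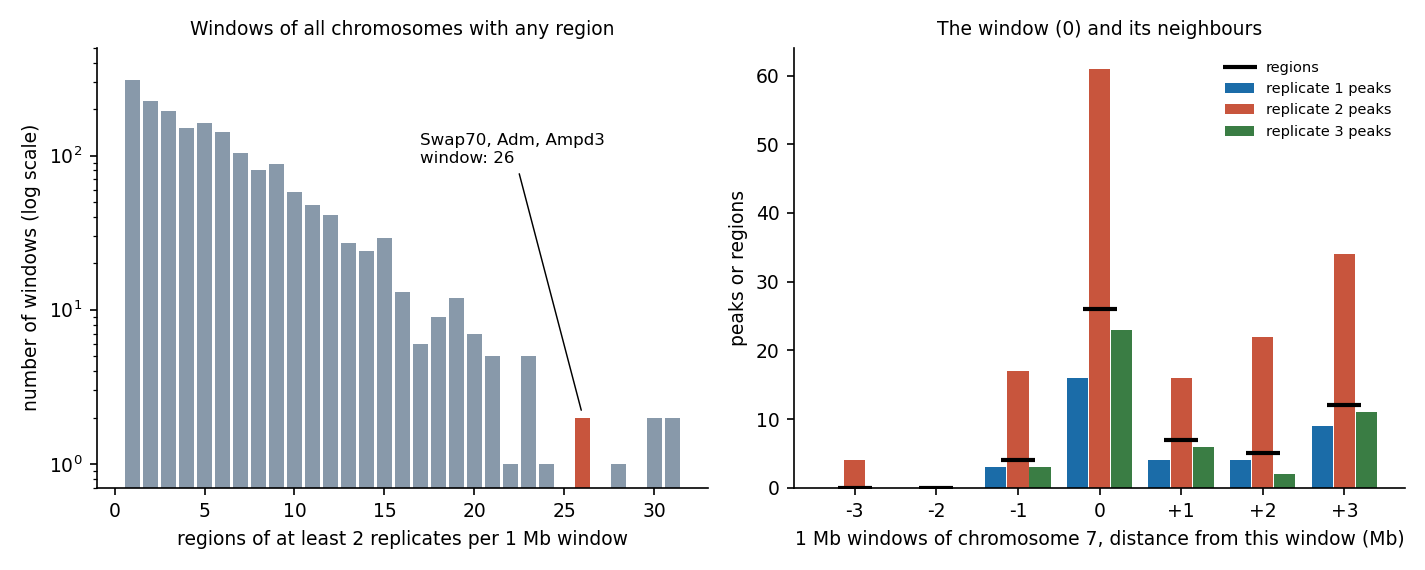
Left, number of 1 Mb windows (log scale) by their number of regions of at least 2 replicates; the bar at 26 regions holds this window and 1 other. Right, peaks of each replicate (bars) and regions (black lines) in the window and in the 1 Mb windows around it on chromosome 7; the window has 26 regions against 4 and 7 beside it.

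Regions also lay beyond both borders of the window, at a lower density than in it. The 1 Mb before it had 4 regions and the 1 Mb after it had 7, and the windows 2 and 3 Mb before it had none. The last region before the lower border lay 189 kb from it, at 116810241 to 116810790, and the first inside lay 130 kb from it, at 117130091 to 117130311. At the upper border the last region inside lay 15.9 kb away, at 117983895 to 117984240, and the first outside lay 120 kb away, at 118119741 to 118120090. The regions thus occupy the stretch from 117130091 to 117984240. With the window moved by 250 kb it held 26 regions when moved down and 25 when moved up.

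Along the window the regions are numbered here from 1 to 26 in order of position. In 11 of them, or 42.3% (95% Wilson interval 25.5 to 61.1, counting error only), all 3 replicates had a peak, against 47.8% of all regions of the series. The remaining 15 were seen in 2 replicates. Of these, 12 had peaks of replicates 2 and 3, 2 of replicates 1 and 2, and 1 of replicates 1 and 3. Replicates 2 and 3 without replicate 1 made up 46.2% of the regions here and 34.8% over the series. Regions 21 and 22, which are 25 and 38 bp wide, both lie in 1 peak of replicate 3 that meets a pair of neighbouring replicate 2 peaks, so counted as groups of overlapping peaks there were 25. The regions had a median width of 316.5 bp, against 350 bp over the series, and the widest had 554 bp.

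Seen from the peaks, replicate 1 shared 11 of its 16 peaks with both other lists, 68.8% (Wilson interval 44.4 to 85.8) against 69.1% of its whole list. Replicate 2 shared 11 of 61, 18.0% (10.4 to 29.5) against 12.7%, and replicate 3 shared 11 of 23, 47.8% (29.2 to 67.0) against 52.8%. The intervals give counting error only, treat neighbouring peaks as independent and are no test. Of the 6 ordered pairs of lists, the share of replicate 2 peaks found in replicate 3 differed most. It was 37.7% (26.6 to 50.3) in the window and 21.7% over the whole list. The share of replicate 1 peaks found in replicate 2 went the other way, 81.25% (57.0 to 93.4) against 91.8%. Of the replicate 2 peaks in the window, 36 overlapped no other list, 59.0% against 74.3% of the whole list. Replicate 1 had 2 peaks without a partner and replicate 3 had none. These shares are partly fixed by the choice of the window.

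**Figure D2:**
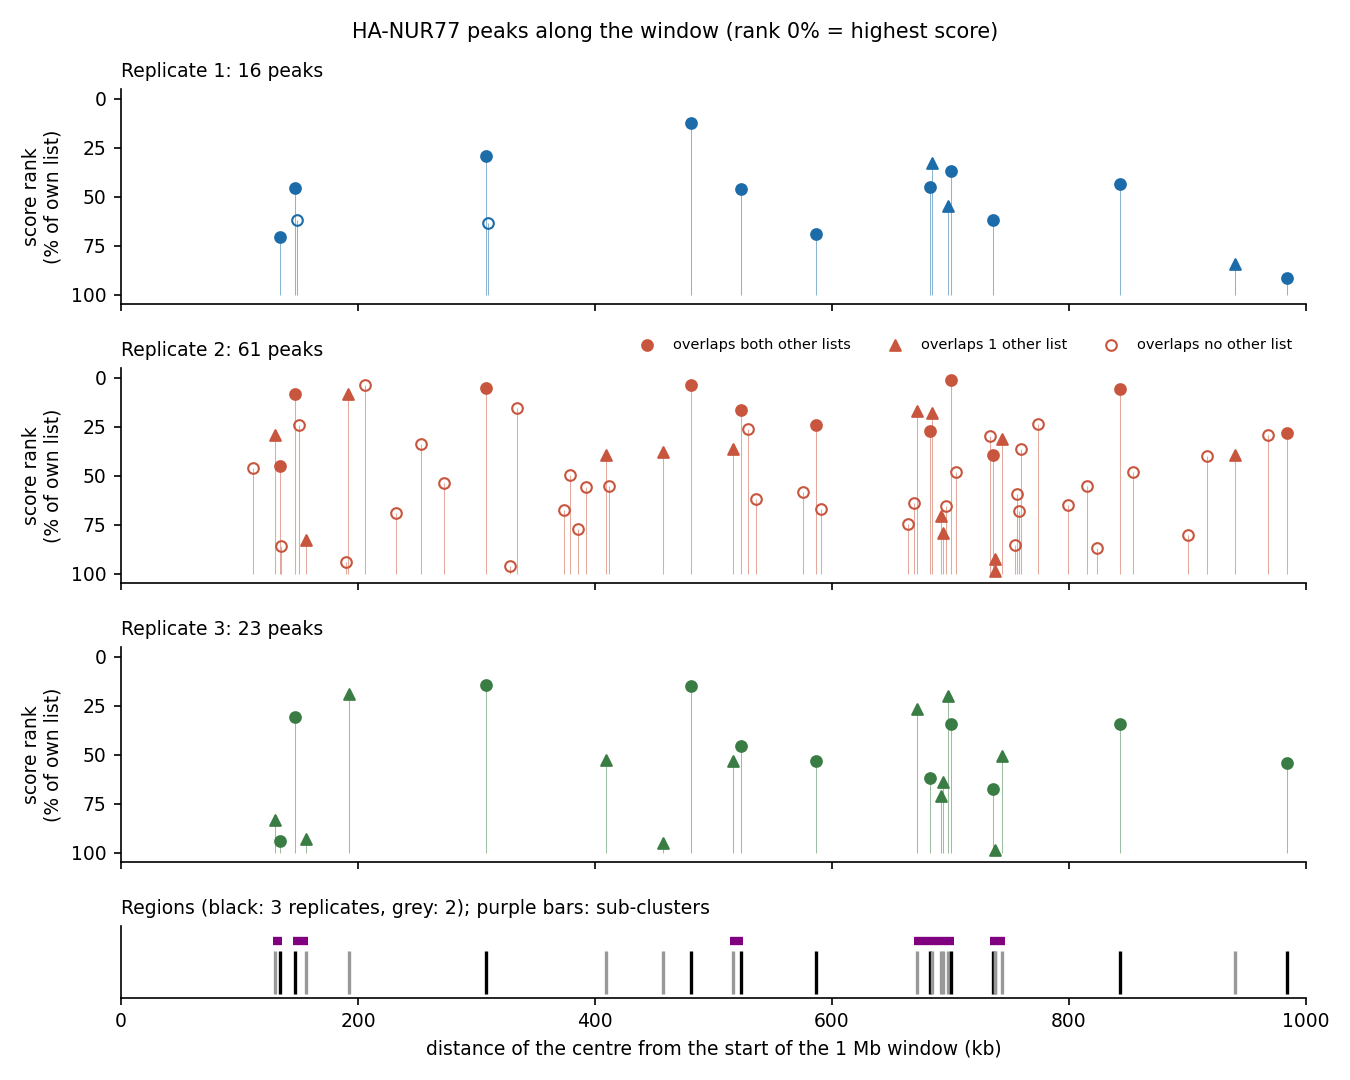
Peaks of each replicate by the distance of their centre from the start of the window (kb) and by score rank as a percent of their own list (0 is the highest score, axis inverted); the bottom strip gives the 26 regions and the 5 sub-clusters. Replicates 1 and 3 have no peak in the top 10% of their list, and replicate 2 has 7.

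The peaks were many but of middling score. The score of a peak is the authors' own value, its scale is not given in the sources used here, and it was used only to rank peaks within a list, with rank 1 the highest. In percent of the own list, the peaks of the window had median ranks of 50.5% for replicate 1, 46.2% for replicate 2 and 53.2% for replicate 3 (mean 50.0% ± 3.5, SD, n = 3). A list as a whole has its median at 50% by construction. The best ranks were 12.48%, 0.898% and 14.3% in the same order, and the last were 91.7%, 98.6% and 98.6%. No peak of replicate 1 or 3 in the window was in the top 10% of its list, and 7 of the 61 in replicate 2 were. In the top 25% there were 1, 14 and 4 peaks of replicates 1, 2 and 3.

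Other dense windows had higher-ranked peaks in most cases. The series has 26 windows with 20 or more regions, a limit set after the counts were seen. In the 25 others the median rank of the peaks had a median of 40.4%, 36.3% and 40.1% for replicates 1, 2 and 3. In 6, 4 and 2 of the others it was lower in the list than here. The others had medians of 3, 10 and 4 peaks in the top 10% of the 3 lists, against 0, 7 and 0 here. The absence of such peaks was shared with 4 other windows in replicate 1 and with 3 in replicate 3. The windows are not replicates and no test was applied between them.

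**Figure D3:**
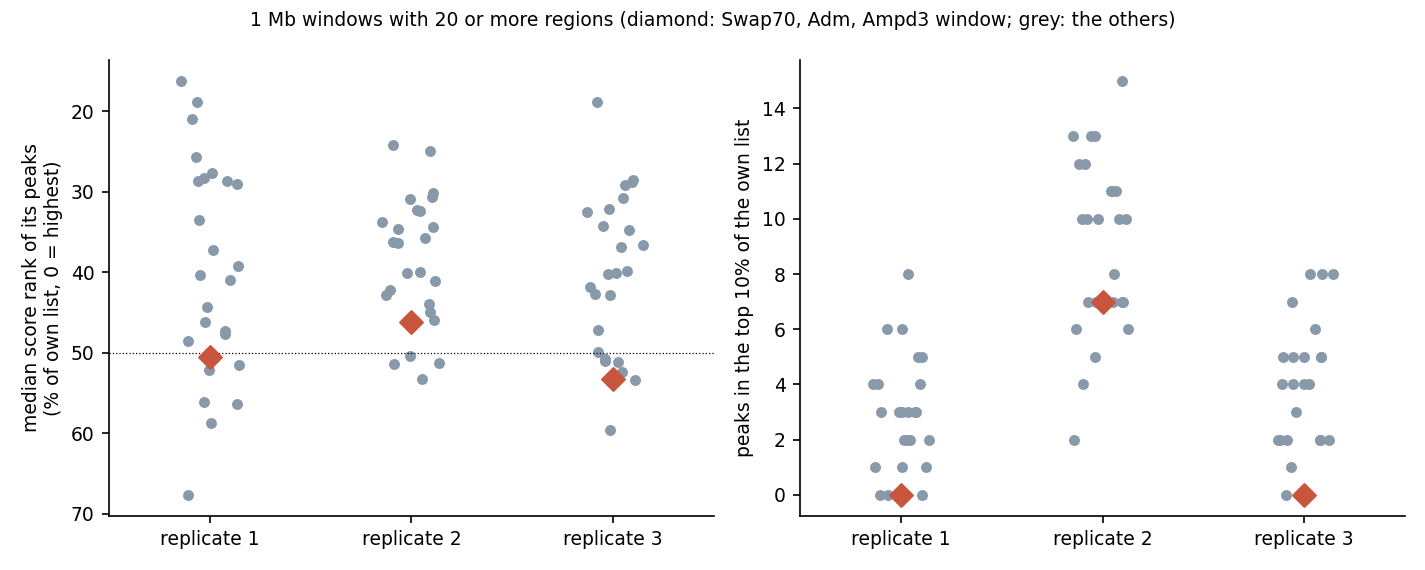
The 26 windows with 20 or more regions, by replicate: left, the median score rank of a window's peaks as a percent of the own list (0 is the highest score, dotted line at 50%); right, the number of its peaks in the top 10% of the list. Diamonds mark the Swap70, Adm and Ampd3 window, with medians of 50.5%, 46.2% and 53.2%, and grey points the 25 others, spread sideways only to be seen.

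The 3 windows closest to it in number of regions were compared one by one. On chromosome 11 at 86000001 to 87000000, 15 of 26 regions had peaks in all 3 replicates, and the median ranks were 28.3%, 34.3% and 42.7% in replicates 1, 2 and 3. On chromosome 17 at 35000001 to 36000000, 9 of 24 regions did, with median ranks of 28.7%, 30.7% and 29.1%. On chromosome 3 at 95000001 to 96000000, 14 of 28 regions did, with median ranks of 21.0%, 24.9% and 30.8%. All 9 of these medians were higher in their list than those of the chromosome 7 window. Its share of regions with all 3 replicates, 42.3%, lay among theirs, which were 57.7%, 37.5% and 50.0%.

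Region 9, at 117480991 to 117481494, stood highest by its mean rank over the 3 lists. It scored 109.145 in replicate 1, 636.979 in replicate 2 and 121.355 in replicate 3, which are ranks 846, 1396 and 1330, or 12.48%, 3.74% and 15.0% of the lists (mean 10.4% ± 5.91, SD, n = 3). It was the best peak of the window in replicate 1, and the nearest region was 24.1 kb away between centres. Region 6, at 117307595 to 117307794, followed with scores of 66.794, 541.963 and 125.105 and ranks of 29.0%, 4.96% and 14.3% (mean 16.1% ± 12.1). It was the best peak of replicate 3 in the window and is the narrowest of the 11 regions with all 3 replicates, at 200 bp. It stands alone between the 2 longest gaps between neighbouring regions of the window.

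Regions 19, 24 and 3 were near the top of the replicate 2 list and in the middle of the other lists, in percent. Region 19, at 117700545 to 117700994, scored 958.844 in replicate 2, a value that 549 peaks of that list share and 60 exceed, and so had the best rank of the window there, 335 or 0.898%. In replicates 1 and 3 it scored 56.210 and 69.976, at ranks of 37.0% and 34.4%, behind 3 and 7 other peaks of the window. Region 24, at 117843091 to 117843644, the widest of all, scored 50.084, 511.701 and 69.995, with ranks of 43.5%, 5.48% and 34.3%. Region 3, at 117146641 to 117146894, scored 48.461, 395.455 and 76.508, with ranks of 45.4%, 8.23% and 30.7%. A percent of the longer replicate 2 list is not on the same footing as one of the shorter lists, since that list reaches further down.

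The next 5 regions with all 3 replicates ranked lower. Region 11, at 117522862 to 117523194, had ranks of 46.2%, 16.5% and 45.6% in replicates 1, 2 and 3. Region 14, at 117682345 to 117682744, had 45.1%, 27.3% and 62.1%. Region 12, at 117586245 to 117586740, had 69.0%, 23.9% and 53.4%. By the rank itself, replicate 2 was the lowest of the 3 in these regions, at 6154, 10181 and 8925. Region 20, at 117735545 to 117736040, had 61.9%, 39.5% and 67.3%, and region 26, at 117983895 to 117984240, had 91.7%, 28.1% and 54.2%. Region 26 was the lowest-ranked peak of the window in replicate 1, with a score of 25.242. The last, region 2 at 117133691 to 117133994, had 70.6%, 45.2% and 93.9%.

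The 11 regions with all 3 replicates had median ranks of 45.4%, 16.5% and 45.6% in the 3 lists. By the rank itself, replicate 2 was the best of the 3 in regions 19 and 24 and in no other of the 11. Its list is the longest, and whether that accounts for its low percent was not tested. Over the whole lists, peaks that overlap both other lists have median ranks of 39.8%, 8.65% and 33.9% in replicates 1, 2 and 3. The peaks in regions of all 3 replicates thus ranked lower here than such peaks in general in each list. The highest and the lowest of the 3 centres of a region were 29 to 221 bp apart, with a median of 71 bp. The peaks of a region overlap by definition, which itself limits this distance. Across the regions that 2 replicates share, the ranks had a Spearman rho of 0.82 for replicates 1 and 2 (13 regions), 0.71 for 1 and 3 (12 regions) and 0.87 for 2 and 3 (23 regions). These are descriptions across neighbouring regions of the same libraries, and regions 21 and 22 share a replicate 3 peak.

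**Figure D4:**
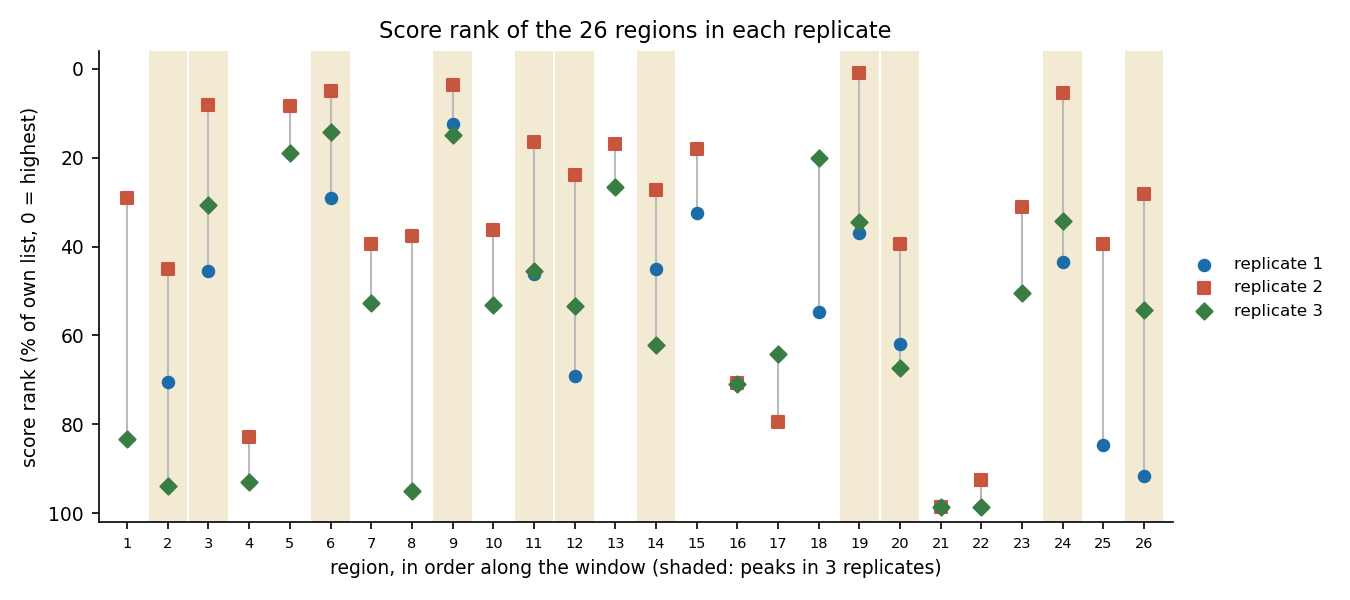
Score rank of the 26 regions in each replicate, as a percent of the own list (0 is the highest score, axis inverted), in order along the window; shading marks the 11 regions with peaks in 3 replicates and grey lines join the values of a region. The squares of replicate 2 lie highest in the shaded regions, where its list is the longest of the 3 and a percent of it is not on the same footing.

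The 15 regions of 2 replicates had a wide range of ranks. Those 3 with a peak of replicate 1 ranged from 32.6% to 84.5% in its list. In replicate 2 the regions had a median rank of 38.6%, from 8.38% to 98.6%, and in replicate 3 one of 64.1%, from 18.9% to 98.6%. The best of them was region 5, at 117191741 to 117192161, with 390.846 in replicate 2 and 106.187 in replicate 3 (ranks of 8.38% and 18.9%) and no peak in replicate 1. Region 13, at 117671512 to 117671840, was similar, with 233.621 and 85.118 (16.9% and 26.7%), and it too had none in replicate 1. Region 18, at 117697795 to 117698094, was the sole region without replicate 2. Its scores were 41.681 in replicate 1 and 102.842 in replicate 3, and the latter, rank 1782 (20.1%), was the fourth-best of the window. The replicate 2 list has a peak of 200 bp beside it, at 117696462 to 117696661, that does not overlap it. The depth of the libraries is unknown, so the lack of a peak does not show that a site was unbound.

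The strongest peak of the window without any partner was in replicate 2. It lay at 117206012 to 117206461 with a score of 646.558, rank 1362 or 3.65% of the list, second in the window behind region 19 and ahead of region 9. Of the 7 replicate 2 peaks of the window in the top 10%, 5 were in regions with all 3 replicates (3, 6, 9, 19 and 24), 1 was in region 5, and this was the other. The next peak of replicate 2 alone, at 117333462 to 117334111, scored 254.258 (15.3%). The 36 peaks of replicate 2 alone had a median rank of 57.1%, against 61.2% for all 27717 such peaks of the list. The 2 peaks of replicate 1 alone, at 117148045 to 117148294 and 117309845 to 117309944, had ranks of 62.0% and 63.3%, and lay close behind regions 3 and 6.

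The regions were not spread evenly. Joined while the next centre lay no further away than 50 kb divided by 4, 17 of the 26 regions formed 5 sub-clusters and 9 stood alone. Over the series 36.1% of regions had a neighbour at that distance, against 65.4% here, a share that the choice of a dense window raises. The median distance to the nearest region was 6.73 kb here and 22.0 kb over the series.

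The largest sub-cluster had 7 regions (13 to 19) in 29.5 kb, from 117671512 to 117700994, with a median of 3.62 kb between centres. Peaks of all lists met there, 4 of replicate 1, 7 of replicate 2 and 6 of replicate 3. All 4 combinations of replicates occurred among its regions: all 3 in regions 14 and 19, replicates 2 and 3 in regions 13, 16 and 17, replicates 1 and 2 in region 15, and replicates 1 and 3 in region 18. Region 15, at 117683962 to 117684444, had ranks of 32.6% in replicate 1 and 18.2% in replicate 2. Regions 16 and 17 stood low in both of their lists, between 64.1% and 79.4%.

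The second sub-cluster by size had 4 regions (20 to 23) in 8.40 kb, from 117735545 to 117743940, of which region 20 had all 3 replicates. It was weak, with regions 21 and 22 near the bottom of both lists, at 98.6% and 92.5% in replicate 2 and 98.6% in replicate 3 for their shared peak. Region 23, at 117743641 to 117743940, was its best, with 31.1% in replicate 2 and 50.5% in replicate 3. The 3 others were pairs, regions 1 and 2 at 117130091 to 117133994, regions 3 and 4 at 117146641 to 117155890, and regions 10 and 11 at 117516162 to 117523194. Each pair joined 1 region of all 3 replicates with 1 of replicates 2 and 3. Regions 2 and 3, of the first 2 pairs, have centres 12.9 kb apart and were not joined.

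The number of sub-clusters varied with the replicates used, as did the number of regions left to join. Among regions with all 3 replicates alone no sub-cluster formed. From regions common to replicates 2 and 3 there were 5, the largest with 5 regions. From those common to replicates 1 and 2, and from those common to replicates 1 and 3, there was 1 in each case, with 2 regions. The number of regions was 13 without replicate 3, 12 without replicate 2 and 23 without replicate 1. Fewer regions leave fewer to join, so these counts do not single out a pair of replicates.

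Long stretches between neighbouring regions of the window held no region. The stretch from the lower border to the first region, 130 kb, is longer than any of these and is left out here. The longest between 2 regions was 115 kb, from 117192162 to 117307594. It held 4 replicate 2 peaks, among them the strongest peak without a partner, and none of replicates 1 and 3. The next, 101 kb from 117307795 to 117409290, held 6 peaks of replicate 2 and 1 of replicate 1. From 117743941 to 117843090, 99.2 kb held 8 peaks of replicate 2 alone, and from 117843645 to 117940194, 96.6 kb held 3. In these 4 stretches replicate 3 had no peak. This is largely fixed in advance, since every replicate 3 peak of the window overlaps another list and so marks a region.

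The median width of the window's peaks was 275, 500 and 300 bp in replicates 1, 2 and 3, against 350, 500 and 350 bp over the lists. Peaks covered 5.0 kb, 29.1 kb and 8.05 kb of the window, and the 26 regions covered 8.66 kb. Centres of neighbouring peaks lay a median of 41.8 kb apart for replicate 1, 9.56 kb for replicate 2 and 18.5 kb for replicate 3.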

How the data were processed

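ChIP-seq of HA-NUR77 in 3 replicates was analysed from the peak lists that the authors deposited. Each list gives a position and a score per peak, and the deposited score has no stated scale, so it served only for ranks within a list, with ties at their mean rank. Coordinates are of mm9, per the submitters' processing notes, and are printed 1-based. The peak names are of the form that MACS writes. The sources used here give neither the aligner nor the caller's threshold and version, nor how control reads were used. Read counts are not part of the lists, so depth is unknown.

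Regions are the rows of the authors' table of intervals in at least 2 replicates, joined where they touch. Its 48 intervals in the window had the borders rebuilt from the lists. Its replicate names matched for 31 as written and for all 48 with replicates 2 and 3 exchanged, so replicates were taken from the lists. Peaks overlapped if they shared 1 bp. No hypothesis test was made, since the window was chosen on these data and there is 1 group. The members and lists were chosen with earlier results of these data known. The regions given in full are the 10 of all 3 replicates with the lowest mean percent rank, and the like windows are the 3 nearest in number of regions. Alternatives were other window borders, list lengths, overlaps and joining distances, and leaving out each replicate. The overlap functions recovered planted regions in simulated data with peaks of equal width, small shifts and no split peaks. That setting is simpler than the lists, so it checks the code only. The tools were matplotlib 3.10.9, scipy 1.17.1, pandas 2.3.3, numpy 2.4.6 and Python 3.11.15.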

Additional observations from a re-analysis of the deposited data

How the results depend on the processing

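Of 25 alternatives, 15 left their value within 1.5 times of a count or within 1 SD of a mean. The mean of 33.3 peaks per replicate was 17 with the higher-scored 50% of each list and 14.7 with equal lists, counted within 1 SD because that SD, 24.2, is between lists of unlike length. The 26 regions of at least 2 replicates became 10 with the higher-scored 50% of each list and 13 with the 6777 best-scored peaks of each, and ranged from 12 (without replicate 2) to 23 (without replicate 1) when 1 replicate was left out, with 13 without replicate 3. The 11 regions of all 3 replicates became 6 under both shorter lists, and 7 when both peaks had to overlap by 50%. The lower counts follow from fewer peaks or a stricter overlap. With that overlap the mean share of peaks found in both other lists was 23.9% in place of 44.9%. This too counted as within 1 SD only because that SD, 25.5, is between lists of unlike length. The 5 sub-clusters became 0 with regions of all 3 replicates, and ranged from 1 (without replicate 2, and without replicate 3) to 5 (without replicate 1), since fewer regions were left to join. Joining distances of 5 and 50 kb gave 4 each, holding 11 and 23 regions. The count as groups of overlapping peaks was chosen after seeing the data. No paired analysis was possible because the series has a single group.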

Other observations

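The names of the peaks carry numbers that rise with position in each list, and some numbers are absent. Between the first and the last peak of the window, 9 of 25 numbers were absent in replicate 1 (36.0%), 10 of 71 in replicate 2 (14.1%) and 10 of 33 in replicate 3 (30.3%). Over the whole lists, counted up to the highest number, the absent shares were 39.1%, 19.7% and 38.8%. The span of the window starts and ends on a peak that is present, which lowers its shares, so no difference is read from them. What the absent numbers stood for is not stated. All peak widths of replicates 1 and 3 in the window were multiples of 50 bp, and 59 of the 61 in replicate 2 were. The 2 exceptions, of 154 and 109 bp, are the neighbouring replicate 2 peaks behind regions 21 and 22.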
